A study of Rattus norvegicus with 6 samples.

Results

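Interferon response and antigen presentation was followed through 43 listed genes: 2 sensors of viral RNA, 5 transcription factors, 16 effectors, 3 chemokines, 11 genes of MHC class I presentation and 6 of MHC class II presentation. A gene was found on the array by matching the RefSeq transcript of each probe to its rat symbol, and its probe with the highest mean signal stood for it. Of the 43 genes, 41 could be tested, among 31582 genes or sequences tested in all. RNA of the kidney cortex was taken from 6 male rats of the outbred Sprague-Dawley stock, bought at 5 weeks of age, and each rat had an Agilent array of its own. In the BBMP group, 3 rats received the brominated flame retardant 2,2-bis(bromomethyl)-1,3-propanediol at 1000 mg/kg/day for 4 weeks. In the control group, 3 rats received corn oil for 4 weeks. All 6 were kept on a basal diet, and no genetic change is stated for any of them. The comparison asks what the compound did to the transcripts of this pathway in the kidney.

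Interferons bind receptors on the cell surface and, through JAK kinases, activate transcription factors. STAT2 and IRF9 belong to the complex that binds the interferon-stimulated response element (ISRE), and the response to interferon gamma runs through the gamma-activated site (GAS). The genes switched on in this way block viral growth, call T cells and raise antigen presentation. In class I presentation, the immunoproteasome cuts proteins into peptides, TAP carries these into the endoplasmic reticulum, and tapasin helps to load them onto class I molecules held together by beta-2 microglobulin. Class II molecules are assembled with the invariant chain Cd74 under the control of Ciita. In the kidney, class I is carried widely, while class II belongs mainly to resident macrophages and dendritic cells. RT1 is the name of the MHC in the rat, and its genes are polymorphic.

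The promoters of the members carried the letters of these elements to different degrees. In the 250 bases before the transcription start, taken from RefSeq on GRCr8, the ISRE letters (GAAA, any 2 letters, then GAAA) were found on either strand in 17 of the 35 members with a promoter in the table (48.6%), against 3.41% of all 33469 promoters. The GAS letters TTCNNNGAA were found in 8 of 35 (22.9%), against 7.67% of all promoters. The Y box letters CCAAT, which the factor NF-Y binds in MHC class II promoters, were found in 16 of 35 (45.7%), against 34% of all promoters. ISRE matches overlapped each other in Oas1a, Bst2 and Tapbp. In Bst2 a GAS match overlapped the ISRE that began 131 bases before the start. By role, ISRE letters lay in 8 of 12 effectors, 6 of 9 class I genes and 0 of 5 class II genes, and all 5 class II promoters held a Y box. These matches are descriptions of letters and not of bound sites.

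Promoters are printed below for the 5 members with a table entry and the lowest p-values among those whose groups were called or did not overlap, and for RT1-Bb, which was added after its values were seen to show a class II promoter. They run 5′ to 3′ on the strand of the gene, and capitals mark an ISRE in Ifit3 and Psmb10 and a Y box in Cxcl9 and RT1-Bb. Psme1 and Psmb9 held none of the 3 sets of letters in this window. The intervals are chr14:16006916-16007165 (plus strand) for Cxcl9, chr15:33038721-33038970 (plus) for Psme1, chr19:50743293-50743542 (minus) for Psmb10, chr1:241527076-241527325 (plus) for Ifit3, chr20:4668750-4668999 (plus) for Psmb9 and chr20:4604119-4604368 (minus) for RT1-Bb.
Cxcl9: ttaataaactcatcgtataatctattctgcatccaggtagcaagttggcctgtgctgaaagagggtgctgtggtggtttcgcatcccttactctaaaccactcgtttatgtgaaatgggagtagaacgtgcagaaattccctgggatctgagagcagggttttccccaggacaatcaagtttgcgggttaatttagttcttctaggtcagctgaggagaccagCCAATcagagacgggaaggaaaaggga
Psme1: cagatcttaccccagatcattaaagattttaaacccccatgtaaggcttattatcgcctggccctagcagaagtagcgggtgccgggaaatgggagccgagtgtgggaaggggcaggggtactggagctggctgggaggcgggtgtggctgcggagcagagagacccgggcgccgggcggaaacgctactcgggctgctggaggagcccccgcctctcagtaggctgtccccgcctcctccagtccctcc
Psmb10: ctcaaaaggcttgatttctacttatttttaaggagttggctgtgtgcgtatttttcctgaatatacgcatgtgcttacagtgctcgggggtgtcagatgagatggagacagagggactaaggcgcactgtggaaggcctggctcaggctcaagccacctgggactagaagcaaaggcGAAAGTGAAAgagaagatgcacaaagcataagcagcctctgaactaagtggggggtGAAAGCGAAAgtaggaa
Ifit3: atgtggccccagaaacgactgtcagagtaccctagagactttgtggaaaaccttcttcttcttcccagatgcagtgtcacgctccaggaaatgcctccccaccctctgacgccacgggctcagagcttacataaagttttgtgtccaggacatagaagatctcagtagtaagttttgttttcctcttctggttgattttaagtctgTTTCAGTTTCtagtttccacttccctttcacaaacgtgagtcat
Psmb9: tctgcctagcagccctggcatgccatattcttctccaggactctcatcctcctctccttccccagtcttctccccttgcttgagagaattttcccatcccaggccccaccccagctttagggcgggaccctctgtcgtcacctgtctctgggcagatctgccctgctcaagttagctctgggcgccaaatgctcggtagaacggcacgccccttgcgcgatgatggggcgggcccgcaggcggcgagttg
RT1-Bb: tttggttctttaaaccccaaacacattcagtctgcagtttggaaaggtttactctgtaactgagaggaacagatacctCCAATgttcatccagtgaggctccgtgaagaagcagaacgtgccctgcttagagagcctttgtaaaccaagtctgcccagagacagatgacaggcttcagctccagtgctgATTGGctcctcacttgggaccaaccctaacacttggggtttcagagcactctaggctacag
The ISRE of Ifit3 began 44 bases before the start, and those of Psmb10 at 73 and 17 bases. The Y box of Cxcl9 began 27 bases before the start, and those of RT1-Bb at 172 and 61 bases.

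Values below are normalized log2 signals, that is, the log2 of the processed signal minus the log2 of that array's 75th percentile, so that 0 is the 75th percentile. The share of probes well above background was 70.5% to 72.7% on the BBMP arrays and 67.2% to 68.6% on the control arrays. The 75th percentile of the processed signal was 1244 to 1259 on the BBMP arrays and 942.7 to 949.7 on the control arrays. All 3 BBMP arrays lay on slide 2 and scan 2 and all 3 control arrays on slide 1 and scan 1, so the effects of treatment, of slide and of scan cannot be told apart. All 12 listed proximal tubule markers were well above background on all 6 arrays. This shows that proximal tubule was present, and it does not test how much medulla the samples held.

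Control 1 stood apart in the RT1 class I genes, a pattern seen in the data and described here with no test. Among 41 RT1 class I probes well above background on every array, the one farthest from the median of the other 5 arrays was control 1 in 30 (73.2%), against 21.8% of 39872 such probes of the whole array. Control 1 differed from that median by more than 0.5 on the log2 scale in 18 of the 41 probes, upward in 11 and downward in 7. RT1-CE16, a class I gene, read 2.68, 2.58 and 2.79 in BBMP 1 to 3, against 3.98, 2.59 and 2.56 in control 1 to 3. RT1-CE10, another class I gene, read 0.25, 0.19 and 0.45 in BBMP 1 to 3, against -1.04, 0.14 and 0.15 in control 1 to 3. In these probes 5 arrays lay close together and control 1 lay well above or well below them. Among 16 RT1 class II probes, control 2 was farthest in 10 (62.5%) and control 1 in 4 (25%). The widest range of any RT1 probe was that of a class II probe, of RT1-Bb, the beta chain of the class II molecule B, which was well above background on control 1 alone, at 2.72, while the other 5 arrays read -8.16 to -8.62. Of 61563 probes, 4 had 1 array at least 6 log2 units above all others, and this was 1 of them. The cause of this was not tested.

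**Figure D1:**
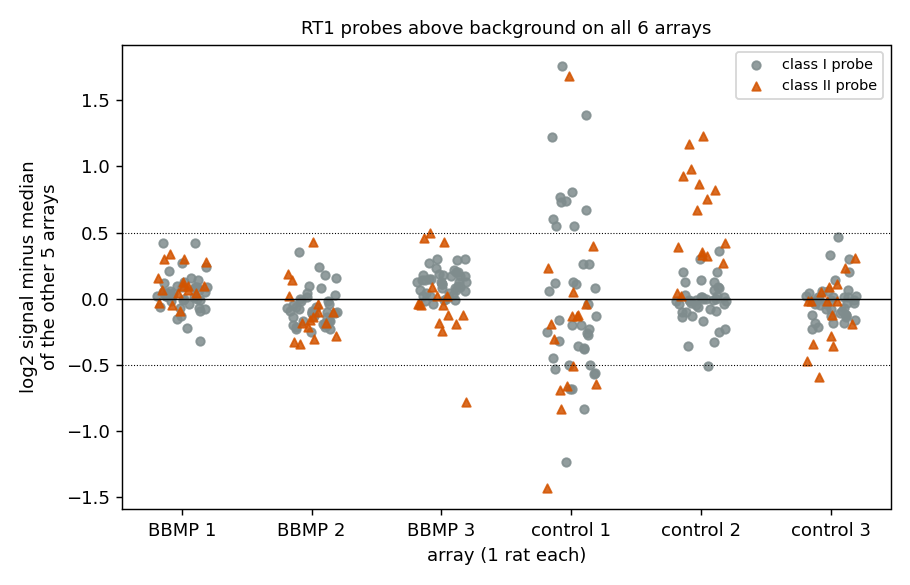
Normalized log2 signal of each RT1 probe minus the median of the other 5 arrays (vertical axis, log2), by array (horizontal axis), for 41 class I probes (circles) and 16 class II probes (triangles) well above background on all 6 arrays; dotted lines mark 0.5 either way. Control 1 spreads widely in both directions, and the class II probes of control 2 lie mostly high.

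Few of the members were called. Limma called 4 of the 41 tested members (9.76%) at an adjusted p under 0.05, against 17.9% of all 31582 genes or sequences tested. Cxcl9, Mx2 and RT1-M4 (3 members) were lower in BBMP rats, and 1 member was higher, Psme1. RT1-M4 passed the detection filter through the control arrays alone, and with probes required well above background on all 6 arrays, 2 members were lower and 1 was higher. The share called lower was 7.32% of members against 7.68% of all tested, and the share called higher was 2.44% against 10.2%. In direction the members leaned down more often than the array as a whole: 30 of 41 differences (73.2%) were negative, against 43.5% of all tested. Their median log2 difference, BBMP minus control, was -0.13, against 0.05 over all tested, and -0.06 when BBMP 2 was left out. With slide row as a block, or within slide row 1, the median was -0.04, against 0.03 over all tested. In bulk tissue, fewer cells of a type and less RNA per cell cannot be told apart.

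**Figure D2:**
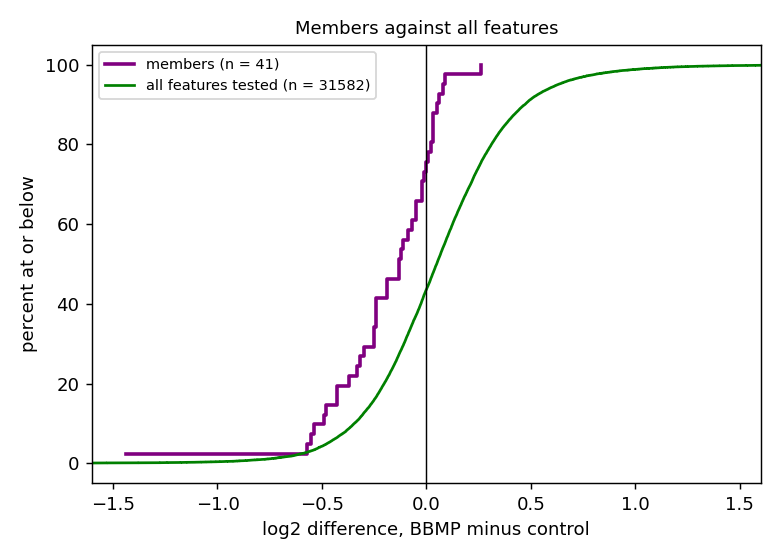
Percent of genes at or below each log2 difference, BBMP minus control (horizontal axis), for the 41 members (stepped line) and all 31582 genes or sequences tested (smooth line). The members' curve runs to the left of the other, with medians of -0.13 and 0.05.

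The groups did not overlap in 11 members (26.8%), against 43.6% of all tested, with 10 members lower in BBMP rats (18.6% of all tested were) and 1 higher (25.0% of all tested were). At an unadjusted p under 0.05 there were 10 members, against 36.6% of all tested, and 9 of them were lower, against 15.1% of all tested. Rats of the same group varied in these genes: the median within-group SD was 0.20 for members and 0.13 for all tested. It was highest for class II genes, at 0.31, and lowest for class I genes, at 0.08.

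**Figure D3:**
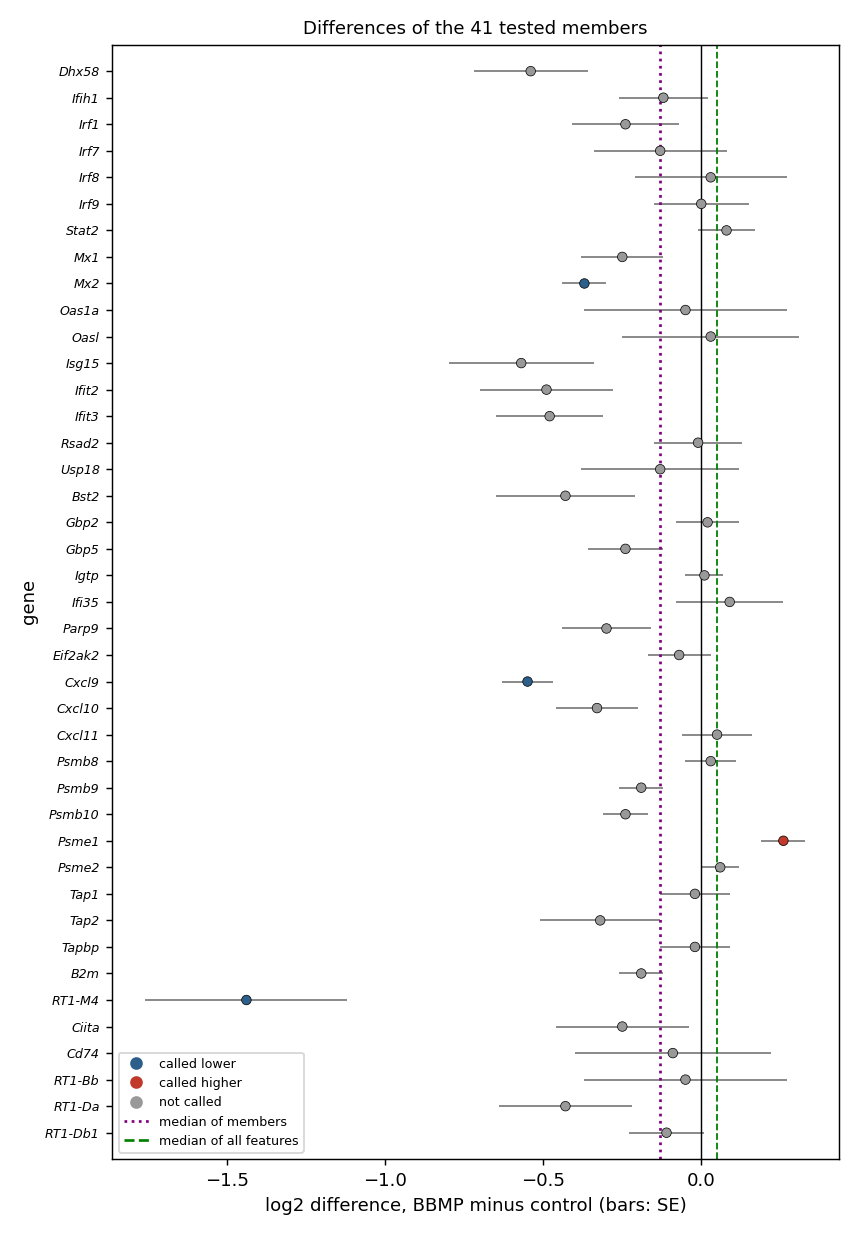
Log2 difference, BBMP minus control (horizontal axis), with its SE (bars) for each of the 41 tested members (rows), grouped by role. Cxcl9, Mx2 and RT1-M4 were called lower and Psme1 higher; the other points lie between -0.57 and 0.09.

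The calls rest on small groups. Without BBMP 1, BBMP 2, BBMP 3 or control 2, limma called 0 members lower, with 11, 7, 9 and 4 members lower at an unadjusted p under 0.05. Of the 31582 genes or sequences, 4014, 3933, 4138 and 3994 were lower at that p in the same fits. Few features of the whole array were called in these fits: 446 lower and 536 higher without BBMP 1, 0 and 3 without BBMP 2, 715 and 922 without BBMP 3, and 596 and 950 without control 2, of 31582. Without control 1 limma called 1 member lower, Cxcl9 (732 of all tested), and without control 3 it called 2, Cxcl9 and Mx2 (1570 of all tested). Psme1 was not called in any of these 6 fits, where its difference was 0.24 to 0.30. The split also moved with the normalization and background correction: limma called 3 members lower and 0 higher with quantile normalization and with cyclic loess, 5 lower and 0 higher after median scaling, and 10 lower and 0 higher after normexp background correction. Of all 31582 tested, 2424 were called lower in the main fit, 3746 after median scaling and 5095 after normexp. Those called higher were 3237, 2106 and 2919 in the same order. Control 3 and all BBMP arrays lay in slide row 1, and control 1 and control 2 in slide row 2. With slide row as a block 0 members were called, and 4 were lower and 1 higher at an unadjusted p under 0.05. Within slide row 1, with 1 control array, 0 were called as well, with 3 lower and 1 higher at an unadjusted p under 0.05. In both fits 0 of the 31582 genes or sequences were called, so they say nothing particular about the members. Within slide row 1 the log2 differences were -0.62 for Cxcl9, -0.26 for Mx2, -1.84 for RT1-M4 and 0.32 for Psme1.

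Neither sensor of viral RNA was called. Dhx58, which encodes the RIG-I-like receptor LGP2, read -2.20, -2.80 and -2.29 in BBMP rats, against -1.75, -1.86 and -2.06 in control rats. All 3 BBMP values lay below all 3 control values, but BBMP 2 lay well below the others. The log2 difference was -0.54 ± 0.18 (SE, limma adjusted p = 0.0908). Without BBMP 2 it was -0.35. Another 2 Dhx58 probes gave 0.01 and -0.30, so the probes disagree. Ifih1, which encodes the sensor MDA5, had a difference of -0.12 (95% interval -0.48 to 0.23).

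The 5 transcription factors were not called, and 0 of them passed an unadjusted p under 0.05. Irf1, which drives class I and immunoproteasome genes, read 2.21, 2.03 and 1.62 in BBMP rats, against 2.35, 2.07 and 2.17 in control rats. The groups overlapped, with BBMP 3 lowest, and the difference was -0.24 ± 0.17 (SE, limma adjusted p = 0.341), or -0.08 without BBMP 3. A dimmer Irf1 probe gave 0.21. Irf7, an amplifier of the type I response, was at -0.13 (0.06 without BBMP 2) and Irf8, a factor of macrophages and dendritic cells, at 0.03. Irf9 and Stat2, the DNA-binding and transactivating partners in the ISRE-binding complex, were at 0.00 (95% interval -0.37 to 0.37) and 0.08 (95% interval -0.15 to 0.32).

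Of 16 effectors, 1 was lower, Mx2, and 0 were higher; 12 had negative differences, and their median was -0.18. Mx2, a dynamin-like antiviral GTPase, read 6.13, 6.15 and 6.20 in BBMP rats, against 6.56, 6.61 and 6.42 in control rats. The 2 sets lay apart with little spread inside either. Mx2 was 1.29-fold lower, a log2 difference of -0.37 ± 0.07 (SE, limma adjusted p = 0.026). Its dimmer probe read -3.20, -4.10 and -2.86 in BBMP rats, against -2.87, -2.66 and -3.05 in control rats. There the groups overlapped, and the difference of -0.53 ± 0.32 (SE) was not called (limma adjusted p over probes = 0.287). With the mean of both probes Mx2 was not called (limma adjusted p = 0.136). Mx1, the nuclear antiviral GTPase, had a difference of -0.25 (95% interval -0.58 to 0.08).

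Isg15, Ifit2 and Ifit3 were effectors whose groups did not overlap, and none of them was called. Isg15, a ubiquitin-like modifier of proteins, read 0.72, -0.03 and 0.64 in BBMP rats, against 1.12, 1.16 and 0.74 in control rats. Its difference was -0.57 ± 0.23 (SE, limma adjusted p = 0.14), the BBMP 1 value lying just under that of control 3 and BBMP 2 far below. Ifit2, which binds viral RNA, read -1.70, -2.31 and -1.62 in BBMP rats, against -1.61, -1.31 and -1.23 in control rats. BBMP 3 and control 1 nearly met, and the difference was -0.49 ± 0.21 (SE, limma adjusted p = 0.156). Ifit3, a partner of Ifit2 whose promoter with its ISRE is printed above, read -2.50, -3.00 and -2.36 in BBMP rats, against -2.14, -2.09 and -2.20 in control rats. The control rats were close together, BBMP 2 was lowest again, and the difference was -0.48 ± 0.17 (SE, limma adjusted p = 0.102). Without BBMP 2 the differences were smaller, at -0.33 for Isg15, -0.27 for Ifit2 and -0.29 for Ifit3.

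The remaining effectors had groups that overlapped. Igtp, an immunity-related GTPase that guards vacuoles holding parasites, read 7.36, 7.33 and 7.38 in BBMP rats, against 7.33, 7.39 and 7.31 in control rats. All 6 values lay within a narrow band, and the difference was 0.01 (95% interval -0.12 to 0.15). Bst2, or tetherin, which holds budding virus on the cell, was at -0.43 (95% interval -0.97 to 0.11), and Parp9, an ADP-ribosyltransferase, at -0.30 (95% interval -0.65 to 0.05). The guanylate-binding proteins Gbp5 and Gbp2 were at -0.24 and 0.02. Oas1a, which makes the activator of RNase L, was at -0.05, and its relative Oasl at 0.03. Usp18, the protease that removes Isg15, was at -0.13 (0.15 without BBMP 2), Rsad2, or viperin, at -0.01, Eif2ak2, the kinase PKR, at -0.07, and Ifi35 at 0.09. None of these was called, and Oas1a, Oasl and Usp18 had the widest spread among the rats of a group.

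Of 3 chemokines 1 was lower, Cxcl9 (33.3%, against 7.68% of all tested), and 0 were higher. Cxcl9, a ligand of the chemokine receptor Cxcr3 of T cells, read -3.56, -3.35 and -3.54 in BBMP rats, against -3.02, -2.91 and -2.87 in control rats. Every BBMP value lay below every control value, and the gap was wider than the spread inside either group. Cxcl9 was 1.47-fold lower, a log2 difference of -0.55 ± 0.08 (SE, limma adjusted p = 0.0165). Cxcl10, another Cxcr3 ligand, read -0.03, -0.33 and -0.21 in BBMP rats, against -0.09, 0.22 and 0.28 in control rats. BBMP 1 and control 1 crossed, and the difference was -0.33 ± 0.13 (SE, limma adjusted p = 0.128). Cxcl11, the last of these ligands, was at 0.05 (95% interval -0.22 to 0.32). In the 250 bases before the start, all 3 chemokines held a Y box. Cxcl9 held no ISRE or GAS letters there, while Cxcl10 held ISRE letters and Cxcl11 GAS letters.

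**Figure D4:**
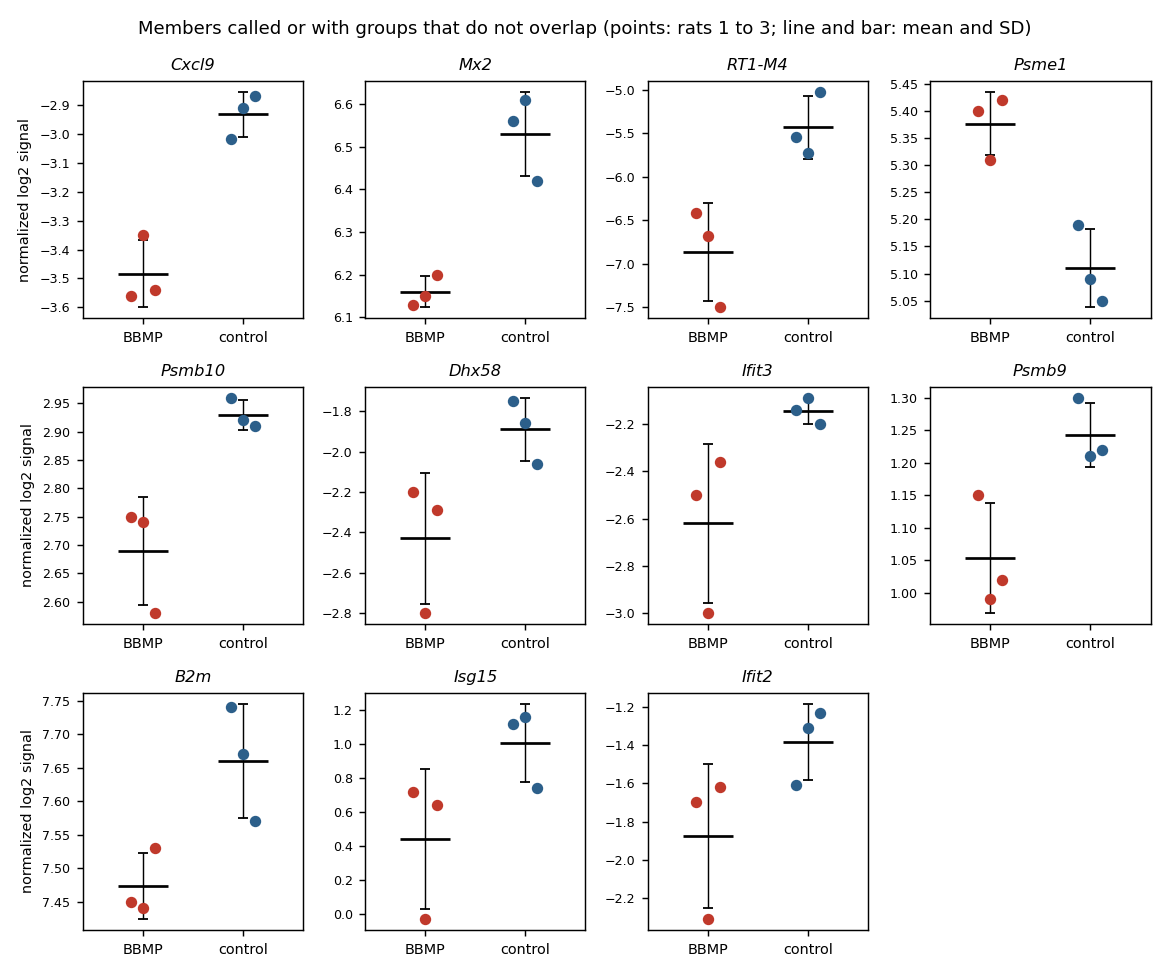
Normalized log2 signal (vertical axes, own scale in each panel) of the 11 members that were called or whose groups did not overlap, for 3 BBMP and 3 control rats (points, rats 1 to 3 from left to right), with the mean (line) and SD (bar). Psme1 is higher in BBMP rats and the other 10 are lower; BBMP 2 is the lowest point in Dhx58, Ifit3, Isg15 and Ifit2.

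Of 10 tested class I genes, 1 was higher and 1 was lower, and the genes of the proteasome did not move together. Psme1, the alpha subunit of the proteasome activator PA28, read 5.40, 5.31 and 5.42 in BBMP rats, against 5.19, 5.09 and 5.05 in control rats. The groups lay apart, and Psme1 was 1.20-fold higher, at 0.26 ± 0.07 (SE, limma adjusted p = 0.046). Its other probe gave 0.22 ± 0.07 (SE, limma adjusted p over probes = 0.0724). Psme2, the beta subunit of the same activator, was at 0.06 (95% interval -0.09 to 0.21).

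Psmb10, a catalytic subunit of the immunoproteasome whose promoter with 2 ISRE matches is printed above, read 2.75, 2.74 and 2.58 in BBMP rats, against 2.96, 2.92 and 2.91 in control rats. The groups did not overlap, and the difference of -0.24 ± 0.07 (SE) missed the threshold (limma adjusted p = 0.0678). Psmb9, another of its catalytic subunits, read 1.15, 0.99 and 1.02 in BBMP rats, against 1.30, 1.21 and 1.22 in control rats. Again the groups did not overlap, and the difference was -0.19 ± 0.07 (SE, limma adjusted p = 0.111). Psmb8, the other catalytic subunit, was at 0.03 (95% interval -0.16 to 0.22). The activator subunit Psme1 thus differed upward, while 2 of the 3 catalytic subunits had negative differences that were not called.

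B2m, the beta-2 microglobulin that every classical class I molecule needs, read 7.45, 7.44 and 7.53 in BBMP rats, against 7.74, 7.67 and 7.57 in control rats. The groups did not overlap, though BBMP 3 came close to control 3, and the difference was -0.19 ± 0.07 (SE, limma adjusted p = 0.116). All 5 B2m probes were negative, between -0.04 and -0.23. Tap1 and Tap2, the 2 chains of the peptide transporter, were at -0.02 and -0.32. Tap2 read 1.20 in control 1 and 0.44 to 0.74 on the other 5 arrays, and without control 1 its difference was -0.12. Tapbp, or tapasin, was at -0.02 (95% interval -0.29 to 0.25).

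RT1-M4, a non-classical class I gene, was called from a probe near background. It read -6.42, -6.68 and -7.50 in BBMP rats, against -5.54, -5.72 and -5.02 in control rats. The groups did not overlap, but the probe was not well above background on any BBMP array and was so on 3 control arrays. The control mean was -5.43 and the lowest signal counted as above background gave the BBMP rats a bound of -6.19, so that RT1-M4 was at least 1.70-fold lower by the processed signal (limma adjusted p = 0.035). Its p rests on BBMP signals near background, and the probe entered the test only through the group where it was high. With normexp, which takes another signal and adds an offset of 50, the log2 difference was -0.63. The bound is the mean over the BBMP arrays of the lowest signal well above background there. The measured means were -6.87 in BBMP rats and -5.43 in control rats. No probe for Nlrc5, the class I transactivator, was matched.

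In each of the 5 tested class II genes, the control rats spread over a wider range than the distance between the group means. The probe of RT1-Ba, the alpha chain of the class II molecule B, was well above background on no array and was not tested. Limma called 0 of 5, and 0 passed an unadjusted p under 0.05, although all 5 differences were negative, from -0.43 to -0.05. Cd74, the invariant chain, read 5.27, 5.14 and 5.52 in BBMP rats, against 4.98, 6.09 and 5.13 in control rats. RT1-Bb, whose promoter with 2 Y boxes is printed above, read 3.10, 2.87 and 3.08 in BBMP rats, against 2.42, 3.73 and 3.06 in control rats. RT1-Da, the alpha chain of the class II molecule D, read 3.11, 2.93 and 2.92 in BBMP rats, against 3.07, 3.89 and 3.30 in control rats. Control 2 was the highest of the 6 rats in all 3 genes, and control 1 was the lowest of the 6 in Cd74 and RT1-Bb.

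Leaving out control rats turned the sign of some class II differences. Without control 2, Cd74 was at 0.26 and RT1-Bb at 0.28, and without control 1 they were at -0.30 and -0.37; with all 6 arrays they were at -0.09 and -0.05. RT1-Da was at -0.43 with all arrays and -0.20 without control 2, and it was not called in either fit. RT1-Db1, the beta chain of the class II molecule D, was at -0.11, and -0.04, -0.17, 0.71 and -0.93 by its other 4 probes. The last of these probes read 1.81, 1.74 and 1.72 in BBMP rats, against 3.49, 2.68 and 1.90 in control rats, so that the control rats differed among themselves far more than the BBMP rats did. Ciita, the master regulator of class II, was at -0.25 (95% interval -0.76 to 0.26) and did not follow control 2, where it read -1.49, between -1.70 in control 1 and -1.08 in control 3.

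Across the roles, some rats were often the lowest or the highest of their group. BBMP 2 was the lowest of the BBMP rats in 29 of 41 members (70.7%), against 33.7% of all genes or sequences tested, and in 12 of 16 effectors. Among the control rats, control 3 was lowest in 12 of 16 effectors and control 2 was highest in 12 of 16, against 31.8% and 31.3% of all tested. In Oas1a, for example, BBMP rats read 0.79, 0.06 and 1.21, and control rats read 0.89, 0.96 and 0.36. In this gene the lowest and the highest rat were both of the BBMP group. Genes of 1 pathway are not independent, so these counts are given as a description with no test.

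**Figure D5:**
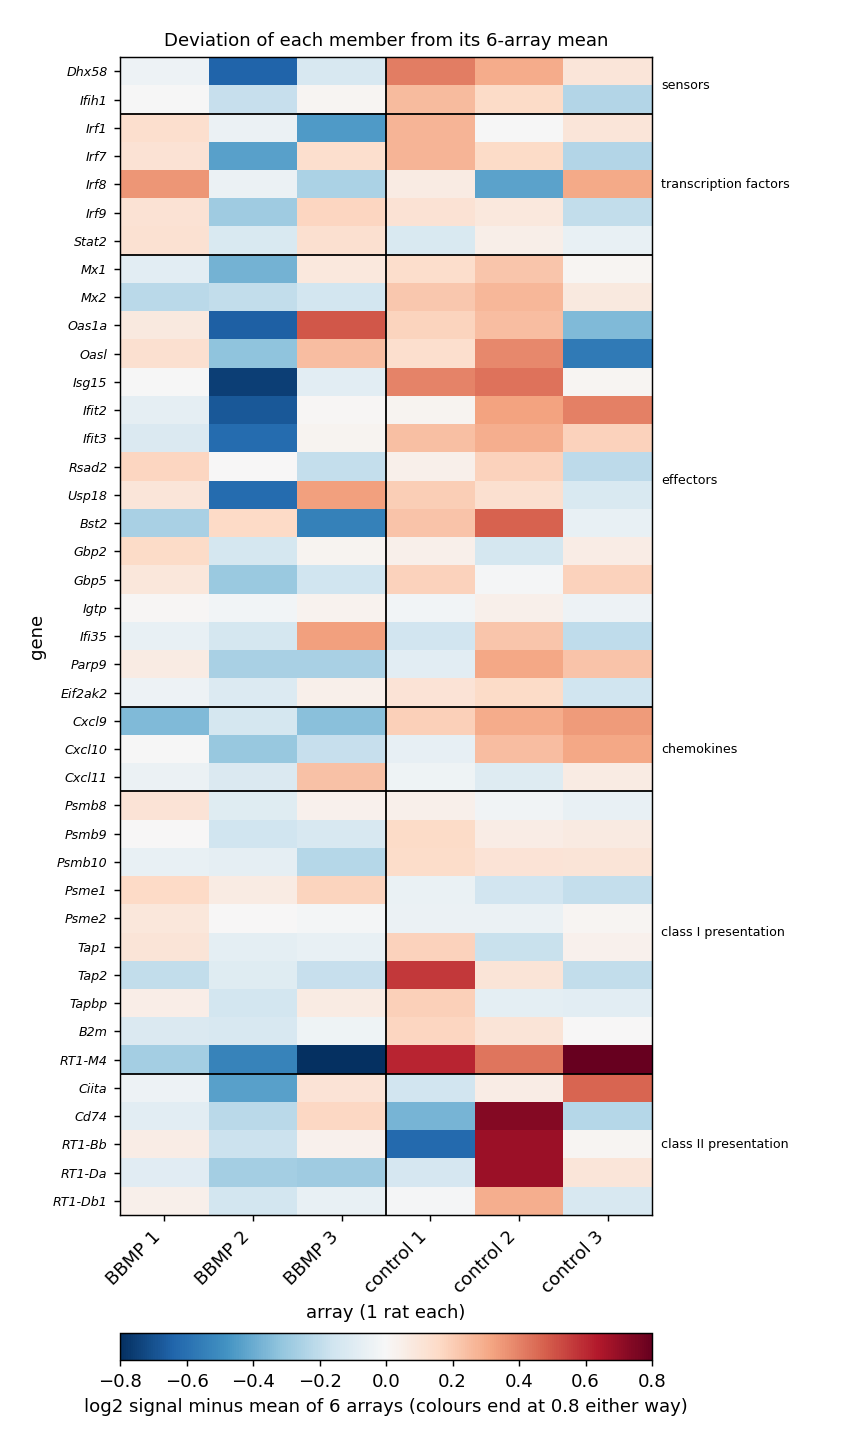
Normalized log2 signal of each tested member minus its mean over the 6 arrays (colour, log2), with members in rows by role and BBMP 1 to 3, then control 1 to 3, in columns. BBMP 2 is blue through most rows, being lowest of its group in 29 of 41 members, and control 2 is deep red in Cd74, RT1-Bb and RT1-Da.

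Other genes of the pathway were called in both directions. From 5 further lists with 144 genes, 106 were tested, 7 were lower and 5 were higher (11.3% called, against 17.9% of all tested), and their median difference was 0.00. Of 16 receptors and signalling genes 2 were lower (12.5%, against 7.68% of all tested). Jak2, the kinase of the interferon gamma receptor, read -0.85, -0.89 and -0.85 in BBMP rats, against -0.47, -0.55 and -0.40 in control rats, a difference of -0.39 ± 0.06 (SE, limma adjusted p = 0.018). Ptpn2, a phosphatase that acts on JAK kinases, read -0.49, -0.55 and -0.59 in BBMP rats, against -0.15, -0.03 and -0.18 in control rats, a difference of -0.42 ± 0.07 (SE, limma adjusted p = 0.0183). The list thus holds 1 positive and 1 negative regulator among its lower genes.

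Among 11 tested genes of nucleic acid sensing, 2 were higher (18.2%, against 10.2% of all tested). These were Adar, an RNA-editing enzyme, at 0.68 ± 0.11 (SE, limma adjusted p = 0.0171), and Mavs, the mitochondrial adaptor through which the sensors of viral RNA signal, at 0.22 ± 0.06 (SE, limma adjusted p = 0.0485). Of 32 other interferon-stimulated genes 1 was higher and 2 were lower (3.12% and 6.25%, against 10.2% and 7.68% of all tested). Ifitm2, which blocks viral entry, was higher at 0.39 ± 0.06 (SE, limma adjusted p = 0.0189). Dtx3l, the ubiquitin ligase that partners Parp9, was lower at -0.49 ± 0.11 (SE, limma adjusted p = 0.036), and so was Epsti1 at -0.44 ± 0.11 (SE, limma adjusted p = 0.0454). The calls in these lists went in both directions and were small.

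Among 29 other MHC class I genes 2 were higher and 2 were lower (6.90% each, against 10.2% and 7.68% of all tested). Tapbpl, the tapasin-related peptide editor, was higher at 0.56 ± 0.05 (SE, limma adjusted p = 0.0108), and RT1-M5, a non-classical class I gene, at 0.37 ± 0.07 (SE, limma adjusted p = 0.0255). Cd1d1, which presents lipids, was lower at -0.42 ± 0.07 (SE, limma adjusted p = 0.0192), and Canx, or calnexin, a chaperone of new class I chains, at -0.27 ± 0.06 (SE, limma adjusted p = 0.0325). Of 18 other class II genes 1 was lower (5.56%, against 7.68% of all tested). This was Nfyb, a subunit of the Y box factor NF-Y, at -0.36 ± 0.07 (SE, limma adjusted p = 0.0272). Nfyb acts on many promoters outside the MHC, and a link between it and the class II members was not tested.

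Among markers of immune cells, 0 were called lower and 3 were called higher, against 7.68% and 10.2% of all tested. The share called higher was 14.3% of T and NK cell markers and 8.33% of macrophage and dendritic cell markers. Of 7 tested leukocyte markers 0 were called (2 lower at an unadjusted p under 0.05), and their summed linear signal, in units of the array's 75th percentile, was 24.0 to 25.5 in BBMP rats and 26.4 to 27.4 in control rats. For 14 T and NK cell markers it was 3.75 to 4.42 in BBMP rats and 3.44 to 3.60 in control rats, and 2 were higher: Lck, the kinase of the T cell receptor, at 0.51, and Cd5, a surface protein of T cells, which was well above background on 3 BBMP and 0 control arrays and at least 1.88-fold higher. Cd5 thus entered the test only through the BBMP arrays. Of the 14 T and NK cell differences, 4 were negative. For 12 macrophage and dendritic cell markers the sum was 42.5, 42.6 and 52.1 in BBMP rats and 41.9, 49.8 and 45.2 in control rats, and 1 was higher, Csf1r, at 0.42. Of these 12 differences, 7 were negative. Control 2, which had the highest Cd74 at 6.09, had the highest macrophage and dendritic cell sum of the control rats. BBMP 3 had the highest sum of all 6 rats, with Cd74 at 5.52. A link between this sum and Cd74 was not tested.

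Ifng, the gene of interferon gamma, was not above the detection filter. For 3 B cell markers the sum was 0.979 to 1.21 in BBMP rats and 0.545 to 1.04 in control rats, with 0 called, and Ms4a1 and Cd79a, which define B cells, were not among the genes tested. Proximal tubule markers summed to 2440 to 2520 in BBMP rats and 2470 to 2560 in control rats, with 0 of 12 called and 3 lower at an unadjusted p under 0.05. Medulla and papilla markers summed to 0.812 to 0.891 in BBMP rats and 0.900 to 0.969 in control rats. Of these 5 markers, 2 were called (40.0%, against 17.9% of all tested), Aqp4 lower and Upk1b higher. Their differences were negative in 2 and positive in 3, with a median of 0.26, so the lower sum does not describe most of the list. Of 8 endothelial markers 1 was higher, Cdh5 (12.5%, against 10.2% of all tested), and 3 had negative differences. The part of these cell types in the members' values was not tested.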

How the data were processed

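Total RNA was labelled with Cy3 and hybridised to 1-colour Agilent arrays, per the labels' protocols. The authors' deposited scanner files hold intensity as a processed signal made by Agilent Feature Extraction 10.7.1.1, per the file headers (10.7 per the submitters' processing notes), and flags, a score of 0 or 1, for spots well above background, saturated or outlying. The deposited ratio table of the authors was used as an alternative. Each of its columns matched, up to a constant, the scanner file of another sample of the same group, with column medians of 0.1064 to 0.1131 and no centring per gene, so replicate numbers are uncertain and groups are not. How those ratios were made is not given in the sources used here.

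Control, ERCC and 10 outlier-flagged probes were left out, leaving 61563. Signals were divided by the array's 75th percentile and log2 transformed. A probe was kept if every array of the BBMP group or of the control group read it well above background (42657 probes). RefSeq accessions were matched to symbols of GRCr8 (27452 probes named); the array design is based on rn4, and coordinates are those of the RefSeq promoter table alone. The comparison of BBMP with control used limma 3.58.1 (R 4.3.3), by lmFit followed by eBayes. It was a two-sided test without covariates, with Benjamini-Hochberg adjustment over all 31582 genes or sequences. The fit was also run on simulated data, with the outcome not reported here. A gene that was not called may still differ. A probe's signal depends on its sequence, so signals of different probes were not set against each other. Values for each array are given for members called or without overlap and for the member of each role with the highest mean signal, and for some further genes chosen after their values were seen. From each further list up to 4 called genes are named. Some genes of these lists are not reported here. Where a probe is not well above background in 1 group, a bound replaces the fold, except for Cd5, whose bound equals its measured fold. Normexp (offset 50) used the median foreground signal. The members, lists and tests were chosen with earlier results of these data known. The same-number deviations of the 2 groups correlated at -0.12, -0.09 and -0.06, so the numbers were not taken to pair rats. The number of arrays limits the precision. Figures were drawn with Python 3.11.15 and matplotlib 3.10.9.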

Additional observations from a re-analysis of the deposited data

How the results depend on the processing

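The 11 members called or without overlap kept their direction under all alternatives in which they could be tested. The groups did not overlap in any of these 11, so leaving out arrays or adding a block could not turn the sign. Their direction in those fits is therefore no support. The members' median ranged from -0.22 to -0.04, the last with slide row as a block and within slide row 1. The counts moved more. With normexp limma called 10 members lower and 0 higher, with 5095 lower of all tested and 13 lower among the other pathway genes. It moved the median of all tested to -0.06, against 0.05. Median scaling gave 5 and 0 members, 3746 and 2106 of all tested, and 11 other pathway genes lower. Quantile normalization and cyclic loess gave 0 members higher, with 2697 lower and 2591 higher, and 2902 and 2543, of all tested, against 2424 and 3237. Without the filter on dim probes, 0 members and 2098 of all tested were higher, and 4 other pathway genes were lower. The mean of all probes gave 0 members higher, and 4 other pathway genes lower and 3 higher.

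A replicate block, a slide row block and slide row 1 alone each gave 0 calls in every set: 0 members, 0 other pathway genes and 0 of all tested, lower or higher. At an unadjusted p under 0.05, the replicate block left 6 members lower and 1 higher and 4014 and 5926 of all tested, the row block 3106 and 4180 of all tested, and row 1 alone 2797 and 4381; each of these fits has fewer residual degrees of freedom. Leaving out 1 array gave 0 to 2 members lower and 0 to 0 higher, 0 to 1570 of all tested lower and 3 to 2434 higher, and 0 to 3 other pathway genes lower and 0 to 4 higher. The lowest counts came without BBMP 2 (3933 lower and 5617 higher at an unadjusted p under 0.05); the cause was not tested. Cxcl9 was called in 13 of 20 alternatives, Mx2 in 11 of 20, RT1-M4 in 9 of 19 and Psme1 in 5 of 20, with adjusted p-values up to 0.137, 0.221, 0.158 and 0.188. With normexp Dhx58, Ifit2, Ifit3, Psmb9, Psmb10 and B2m were among those called.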
